A study of Mus musculus with 26 samples.

Results

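The genes described here are 50 mouse imprinted genes in 21 clusters, read in 3 deposited tables that together hold 54589 genes. They were taken by name from a list chosen with earlier results of these data known. All 50 were listed in the dTAG13 table and in the overexpression table. The testis table listed 40, and Kcnk9, Magel2, Zim1, Rtl1, Phlda2, Ascl2, Igf2, Airn, Calcr and Nap1l5 were not analysed there. By textbook assignment 26 of the members are expressed mainly from the paternal copy and 23 from the maternal copy, and Gnas has transcripts of both kinds. Allele of origin was not measured, so every value is the sum over both copies.

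Genomic imprinting is the parent-of-origin silencing of a gene, so that most imprinted genes are transcribed from either the maternal or the paternal copy alone. The mark is DNA methylation laid down at imprinting control regions in the egg or sperm, and it is kept through early development by factors such as ZFP57, TRIM28 and DNMT1 that hold methylation on the marked copy. Primordial germ cells erase these marks before the next generation's marks are set, and many imprinted genes act on growth, the placenta and stem cell state.

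The 26 libraries came from 3 experiments on Tex10, a nuclear protein of a ribosome-processing complex. In the first, 129Sv/J epiblast-like cells (EpiLCs, an in vitro stage like the early post-implantation embryo) were sampled untreated. Primordial germ cell-like cells (PGCLCs) made from these EpiLCs were sampled at day 2 and day 4, either with the solvent DMSO or with 500 nM dTAG13, a molecule that sends a tagged protein for breakdown, with 2 libraries in each of the 5 groups. The tagged allele is not described in the labels. In the second, 1 empty-vector line and 2 Tex10 overexpression clones of the same strain, without drug, were sampled as EpiLCs and as PGCLCs at days 2, 4 and 6, with 1 library for each line and stage. In the third, whole testis of C57BL/6N background was taken from 2 wildtype mice and 2 Tex10 conditional knockout (cKO) mice. The labels give neither the Cre driver nor the age of the mice, nor whether cell libraries of a group came from separate cultures, so p-values measure the spread between these libraries.

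Read totals per library ran from 5055362 to 8564563. Values are CPM over a TMM-scaled library size (TMM-scaled CPM), in which 3 reads came to between 0.299 and 0.56. This limit covers counting error only. Fold changes are differences of log2(value + 1), a scale that shrinks the changes of weakly expressed genes. A value with ± is such a log2 fold change with its standard error (SE), and a signed value in parentheses after a gene is its log2 fold change. The test was limma over all genes with a mean of at least 1 in the table, with Benjamini-Hochberg adjustment, and 0.05 was the threshold for a call. Tex10 itself was between 106 and 113 in the day 2 DMSO libraries and 104 and 94.0 with dTAG13, which acts on the protein. It was 105 and 109.5 in the day 4 DMSO libraries and 72.8 and 76.8 with dTAG13, 330 to 654 in the clones against 145 to 213 with the empty vector, and 27.3 and 29.8 in cKO testis against 44.1 and 79.1 in wildtype. Of the germ cell markers, Prdm1 averaged 48.8, Prdm14 35.5, Tfap2c 97.3 and Kit 50.7 in day 2 DMSO PGCLCs, while Dppa3 averaged 2.10 and Nanos3 10.3.

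Levels of different genes were compared per kilobase of exon. In the dTAG13 table the member with the highest mean over all libraries was Peg10, a retrotransposon-derived gene needed for the placenta, at 253 per kb, followed by Jade1, a histone acetylation cofactor, at 85.7, Cd81, a cell-surface tetraspanin, at 38.0 and Zdbf2, a paternally expressed gene, at 37.6. The order depended on the group. Cd81 was above Zdbf2 per kb in every dTAG13 library and below it in every untreated or DMSO library. In the 2 day 4 DMSO libraries Peg10 was at 36.0 and 50.2 per kb, below Jade1 at 83.1 and 81.5, and in the other 8 libraries of that table it was the highest member. In the overexpression table Jade1 stood first at 85.9 and Peg10 second at 64.2 over all libraries. At day 4, however, Peg10 was above Jade1 in all 3 lines (102.6 to 106.8 against 68.7 to 93.6 per kb), and at the other stages it was below. In testis Mcts2, an intronless copy of Mcts1 inside an intron of H13, had the highest mean at 44.2 per kb. Cd81 followed at 22.2. Mcts2 was the highest member in 3 of the 4 libraries and second in cKO replicate 1. Its reads may be shared with Mcts1 and with H13, which lies on the same strand. Cd81 was above Asb4 per kb in both cKO libraries and below it in both wildtype libraries. Rasgrf1, a Ras exchange factor, was at 0.0268 per kb in the dTAG13 table and 0.00911 in the overexpression table, so it was below the filter in both.

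Promoters were read for the members with the largest changes, because ZFP57 is known to bind the hexanucleotide TGCCGC when it is methylated. The window ran from 250 bases before to 50 bases after each annotated start, in the RefSeq sequences of GRCm38.p6, and 41 of the 50 members matched. TGCCGC was searched on both strands (GCGGCA is its other strand), and it overlaps no other motif searched. It was present in 14 of the 41 genes (34.1%), against 3527 of all 27025 genes with a promoter in the table (13.1%). The median number of CG pairs per window was 16.5 for the members and 7 for all windows, and the motif itself contains a CG pair. A match of letters is a description of the window and not a binding site. The 4 windows shown belong to the genes with the largest changes in the clones or with dTAG13 whose promoter was in the table, and capitals mark the motif where it occurred. Grb10 lies at chr11:12037371-12037670 on the minus strand, Plagl1 at chr10:13090582-13090881 on the plus strand, Magel2 at chr7:62376729-62377028 on the plus strand and Ascl2 at chr7:142969215-142969514 on the minus strand.
Grb10: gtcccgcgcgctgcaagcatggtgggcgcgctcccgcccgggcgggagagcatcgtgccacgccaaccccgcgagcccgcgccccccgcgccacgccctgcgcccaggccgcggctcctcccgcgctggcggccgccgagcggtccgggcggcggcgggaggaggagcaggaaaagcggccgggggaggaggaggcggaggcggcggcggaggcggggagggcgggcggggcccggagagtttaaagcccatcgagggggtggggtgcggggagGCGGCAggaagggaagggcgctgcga
Plagl1: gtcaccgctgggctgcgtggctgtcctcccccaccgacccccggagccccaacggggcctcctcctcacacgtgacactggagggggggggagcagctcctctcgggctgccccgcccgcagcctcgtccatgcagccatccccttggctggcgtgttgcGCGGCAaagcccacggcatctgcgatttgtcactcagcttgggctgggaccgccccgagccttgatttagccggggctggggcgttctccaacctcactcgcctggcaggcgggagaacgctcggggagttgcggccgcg
Magel2: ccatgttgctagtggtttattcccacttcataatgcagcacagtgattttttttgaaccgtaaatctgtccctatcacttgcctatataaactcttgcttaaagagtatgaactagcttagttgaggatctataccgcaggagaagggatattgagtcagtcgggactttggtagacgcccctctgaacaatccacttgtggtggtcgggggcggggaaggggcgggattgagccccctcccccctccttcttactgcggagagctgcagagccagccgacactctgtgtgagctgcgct
Ascl2: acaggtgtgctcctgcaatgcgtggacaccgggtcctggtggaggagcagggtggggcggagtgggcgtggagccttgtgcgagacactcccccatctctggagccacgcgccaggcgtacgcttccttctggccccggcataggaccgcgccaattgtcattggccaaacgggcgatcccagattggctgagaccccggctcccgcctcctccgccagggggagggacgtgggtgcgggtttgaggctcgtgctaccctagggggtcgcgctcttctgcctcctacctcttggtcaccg
The Grb10 window shown and that of Plagl1 each held 1 match on the strand opposite to the gene, with 45 and 26 CG pairs. Grb10 has another annotated start, whose window at chr11:12027922-12028221 held 0 matches and 9 CG pairs and is not shown. The Magel2 and Ascl2 windows held none, with 10 and 23 CG pairs.

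With dTAG13, more imprinted genes were higher than lower at both days. At day 2, 22 of 43 tested members were called, 18 higher and 4 lower, against 33.6% of all 16605 tested genes (13.7% higher and 19.9% lower). At day 4, 20 of 43 were called, 18 higher and 2 lower, against 41.8% of all genes (15.8% higher and 26% lower). The 2 day 4 DMSO libraries stood further apart than those of the other groups of this table, with a chi-square of 15.1 per gene against 3.56 to 5.23, and 19 members were called without the first of them and 18 without the second. The members' median log2 fold change was 0.36 at day 2 and 0.32 at day 4, and that of all tested genes was −0.09 and −0.13. Kcnk9, Magel2, Rtl1, Slc22a18, Asb4, Calcr and Rasgrf1 were below the filter. Ascl2 and Dlk1 passed it with a mean of at least 1 in only 1 of the day 4 groups. Among the 41 members at 1 or more in both day 4 groups, 17 were higher and 2 lower, with a median of 0.26. Scaling by the median ratio moved the all-gene medians to −0.01 and −0.03 and the members' counts to 19 higher and 4 lower at day 2 and to 23 higher and 1 lower at day 4. Under that scaling 52.0% of all day 2 calls were higher in place of 40.7%, and 49.1% of all day 4 calls in place of 37.8%. These are bulk libraries, in which fewer cells of a type and less RNA per cell cannot be told apart.

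**Figure D1:**
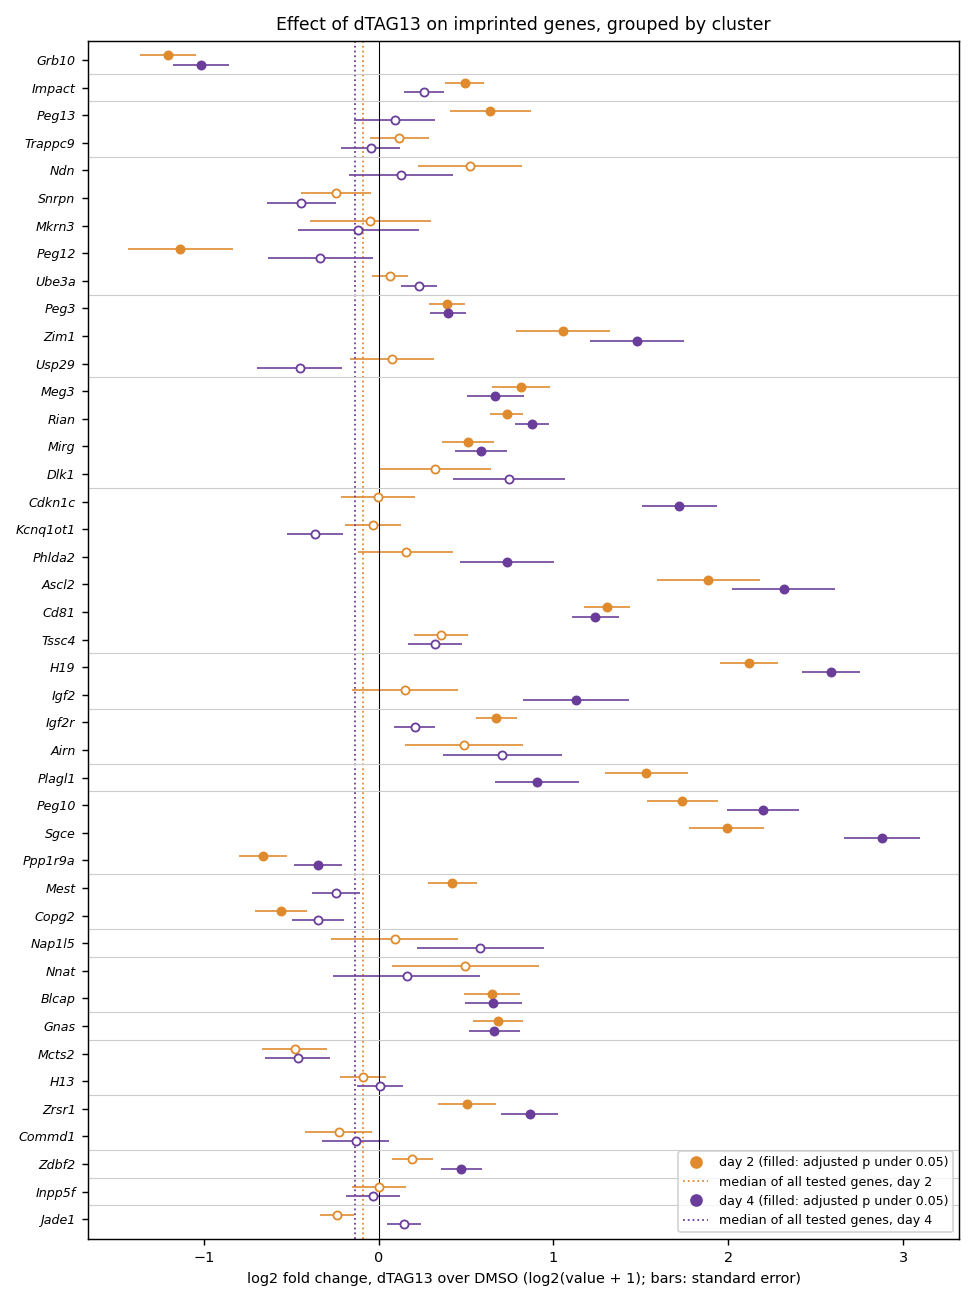
Log2 fold change of each tested member with dTAG13 over DMSO at day 2 and day 4 of PGCLC induction, on the log2(value + 1) scale, with bars for the standard error, filled points for an adjusted p under 0.05, grey lines between clusters and dotted lines at the medians of all tested genes. H19, Ascl2, Peg10 and Sgce lie far to the right at both days and Grb10 to the left, and Cdkn1c at 0.00 at day 2 and 1.72 at day 4 has the widest gap between the days.

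In the H19-Igf2 cluster the noncoding RNA rose at both days and the growth factor at day 4. H19 (chr7:142575530-142578146), a maternally expressed noncoding RNA that restrains growth, was 34.5 and 25.1 in the day 2 DMSO libraries and 127 and 135 with dTAG13, a log2 fold change of 2.12 ± 0.17 SE, limma adjusted p = 3.49e-09. At day 4 it was 23.4 and 19.6 with DMSO and 128 and 140.0 with dTAG13, a change of 2.59 ± 0.17 SE, limma adjusted p = 5.16e-11. Both dTAG13 pairs lay far above every DMSO library. Igf2, the paternally expressed growth factor of the same cluster, was 9.06 and 15.2 at day 2 with DMSO and 10.3 and 16.9 with dTAG13, where the groups overlapped. At day 4 it was 3.76 and 5.48 with DMSO and 8.51 and 14.5 with dTAG13, a change of 1.13 ± 0.30 SE, limma adjusted p = 0.00476. That day 4 call was lost without dTAG13 replicate 2 (0.78, limma adjusted p = 0.107) or without DMSO replicate 1 (0.90, limma adjusted p = 0.0532).

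In the Peg10-Sgce cluster on chromosome 6 the 2 genes that share a divergent start rose together. Sgce (chr6:4674350-4747204), which encodes epsilon-sarcoglycan of the muscle membrane complex, was 5.79 and 7.74 with DMSO and 27.0 and 32.4 with dTAG13 at day 2 (1.99 ± 0.22 SE, limma adjusted p = 3.77e-07). At day 4 it was 2.26 and 2.69 with DMSO and 23.8 and 25.3 with dTAG13 (2.88 ± 0.22 SE, limma adjusted p = 7.24e-10), the largest change of any member in this experiment. Peg10 (chr6:4747306-4760517) was 816 and 1117 against 2671 and 3791 at day 2 (1.74 ± 0.20 SE, limma adjusted p = 1.09e-06), and 239.7 and 335 against 989 and 1718 at day 4 (2.20 ± 0.20 SE, limma adjusted p = 1.79e-08). No dTAG13 library of either gene overlapped the DMSO libraries of its day. Ppp1r9a, a neural actin-binding gene in the same cluster, went the other way, with −0.66 at day 2 and −0.35 at day 4, both called. The day 4 call, with limma adjusted p = 0.0467, was lost in 3 of the 4 fits without 1 library. It was also lost with the replicate block and in every other alternative run except the filter at a mean of at least 5. All 730 tested genes of chromosome 6, which also holds Mest, Copg2 and Nap1l5, had a median of −0.35 at day 2 and −0.24 at day 4. These were the lowest medians of any autosome, and the others lay between −0.16 and −0.0013 at day 2 and between −0.21 and −0.05 at day 4. The part of this shift in the lower values of Ppp1r9a was not tested. The 12 tested flanking genes that are no members had a median of −0.42 at day 2, with 0 higher and 4 lower, and −0.24 at day 4, with 1 higher and 4 lower.

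The Kcnq1ot1 cluster on chromosome 7 changed in part. Ascl2 (chr7:142966822-142969264), a trophoblast transcription factor, was 1.76 and 1.90 with DMSO and 7.93 and 11.2 with dTAG13 at day 2 (1.89 ± 0.30 SE, limma adjusted p = 4.01e-05), and 0.752 and 0.896 against 6.60 and 9.85 at day 4 (2.32 ± 0.30 SE, limma adjusted p = 1.67e-06). Cd81 was 63.4 and 61.1 against 163 and 148 at day 2 (1.31 ± 0.13 SE, limma adjusted p = 1.44e-07) and 88.9 and 78.5 against 213 and 186 at day 4 (1.24 ± 0.13 SE, limma adjusted p = 1.47e-07). Neither gene's groups overlapped at either day. Cdkn1c (chr7:143458339-143461059), a cyclin-dependent kinase inhibitor that limits growth, was 29.7 and 38.4 with DMSO and 30.9 and 36.7 with dTAG13 at day 2, and 3.76 and 5.48 against 13.8 and 21.6 at day 4 (1.72 ± 0.21 SE, limma adjusted p = 1.2e-06). The DMSO libraries fell between the days, and the dTAG13 libraries stayed nearer to their day 2 level. Phlda2, a placental growth regulator, was called at day 4 (0.73 ± 0.27 SE, limma adjusted p = 0.0343), but not in 3 of the 4 fits without 1 library, and was 0.16 at day 2. Tssc4 was 0.36 and 0.32, and Kcnq1ot1, the long noncoding RNA that silences the cluster, was −0.03 and −0.37, none of them called. Kcnq1ot1 was 793 and 1330.2 with DMSO and 821 and 774 with dTAG13 at day 4, so 1 DMSO library decided the value. It was −0.74 without DMSO replicate 1 (limma adjusted p = 1.65e-05) and 0.01 without DMSO replicate 2. Kcnq1ot1 lies on the other strand of Kcnq1, and with the strand setting of the counting not given, their reads cannot be told apart. The same limit holds where exons of Cd81 overlap R74862 and exons of Tssc4 overlap Trpm5 on the other strand. Tssc4 was called higher at both days with median-ratio scaling (0.45 and 0.44) and with edgeR.

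By the test of day 4 against day 2 responses, 1 of the 43 tested members differed (1 higher and 0 lower), against 1.25% of all genes (0.771% higher and 0.482% lower). This was Cdkn1c, with a difference of 1.72 ± 0.30 SE, limma adjusted p = 0.0051. Its call was lost without day 2 dTAG13 replicate 1 (1.60, limma adjusted p = 0.0564) and without day 4 dTAG13 replicate 2 (1.42, limma adjusted p = 0.0576), and the count became 0 without the filter on low values and 0 without a variance trend. Without day 4 DMSO replicate 1 Meg3 and Kcnq1ot1 were called as well, for a count of 3, and without day 4 DMSO replicate 2 Ppp1r9a was, for a count of 2.

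**Figure D2:**
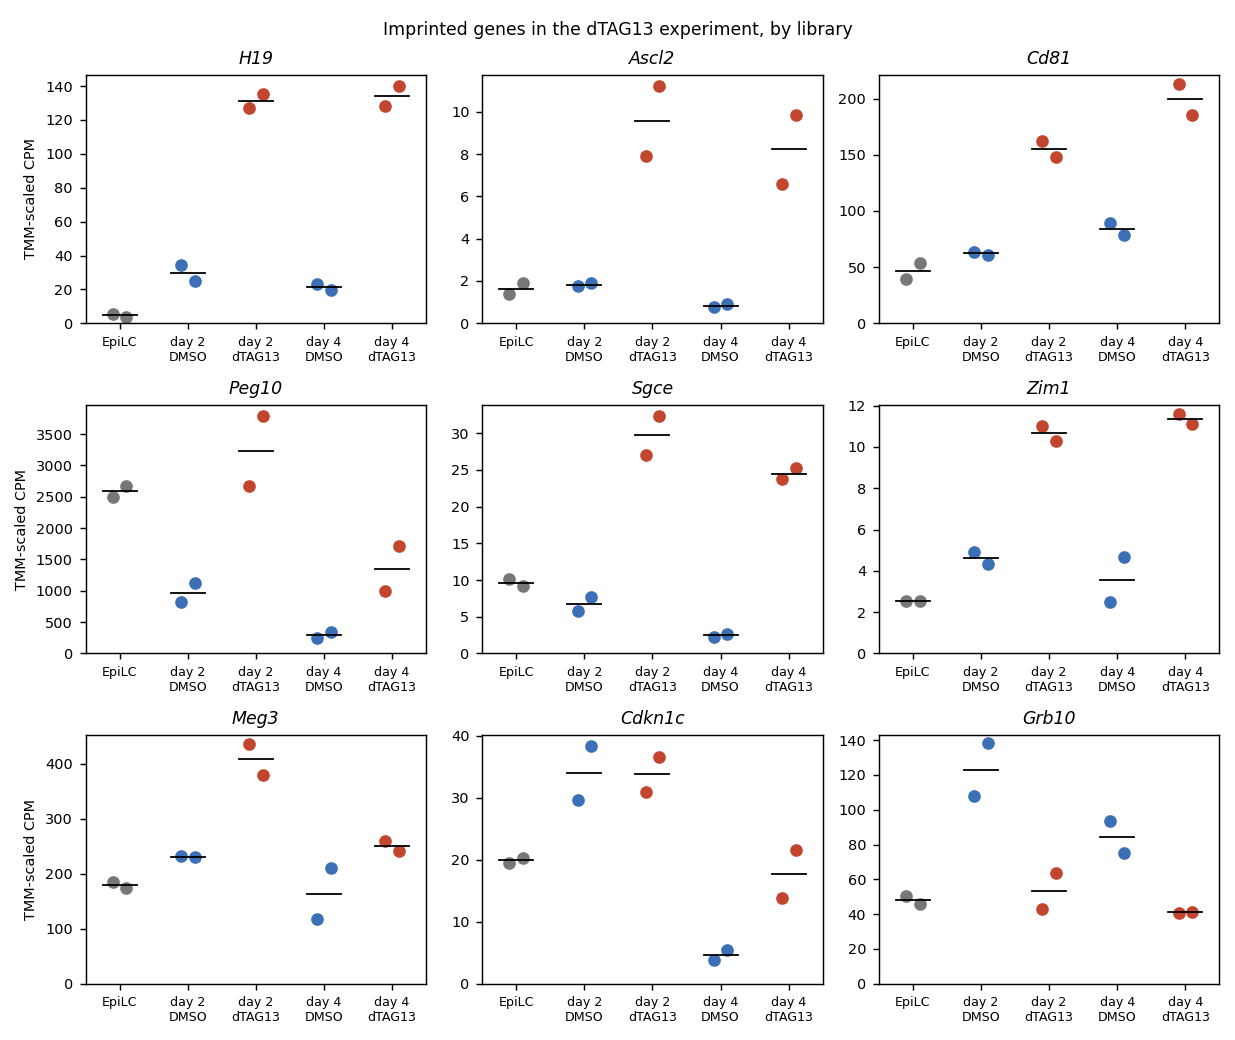
TMM-scaled CPM of 9 members in the 10 libraries of the dTAG13 experiment, with 1 point per library, a black line at the mean of 2 libraries, and axes that start at 0. The dTAG13 points lie above the DMSO points of the same day for H19, Ascl2, Cd81, Peg10, Sgce, Zim1 and Meg3, below them for Grb10, and above them only at day 4 for Cdkn1c.

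Grb10 (chr11:11930499-12037428), an adaptor that dampens insulin and growth factor signalling, was the member with the largest fall. It was 108 and 138 with DMSO and 42.9 and 63.8 with dTAG13 at day 2 (−1.21 ± 0.16 SE, limma adjusted p = 5.34e-06), and 93.5 and 75.3 against 40.9 and 41.0 at day 4 (−1.02 ± 0.16 SE, limma adjusted p = 2.49e-05). The dTAG13 libraries were close to the untreated EpiLCs, at 50.2 and 45.5. Its 20 flanking genes had a median of −0.32 at day 2, with 1 higher and 7 lower. Peg12, a gene of the Snrpn-Magel2 cluster with low values, was 3.90 and 4.21 with DMSO and 1.55 and 1.07 with dTAG13 at day 2 (−1.14 ± 0.30 SE, limma adjusted p = 0.00557), which became −0.98 without dTAG13 replicate 2 (limma adjusted p = 0.0509). The other 4 tested members of that cluster, Ndn, Snrpn, Mkrn3 and Ube3a, were called at neither day by the main test. Ube3a, a ubiquitin ligase gene and the cluster's highest, was 309 and 312 with DMSO and 328 and 324 with dTAG13 at day 2. At day 4 it was 289 and 264 against 318 and 331, and was called with median-ratio scaling, edgeR or DESeq2. Snrpn was called at day 4 without a variance trend.

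The noncoding RNAs of the Dlk1-Meg3 cluster, which are maternally expressed, were higher at both days. Meg3 (chr12:109540996-109571729) was 232 and 231 with DMSO and 437 and 380.2 with dTAG13 at day 2 (0.81 ± 0.16 SE, limma adjusted p = 0.000592), and 117 and 211 against 259 and 242 at day 4 (0.67 ± 0.16 SE, limma adjusted p = 0.00241). The 2 day 4 DMSO libraries stood well apart for this gene, and without DMSO replicate 1 the change was 0.24 (limma adjusted p = 0.078). Rian, a host of small nucleolar RNAs, rose by 0.73 and 0.88, and Mirg, a microRNA host, by 0.51 and 0.58. The day 4 call of Mirg was also lost without DMSO replicate 1 (0.41, limma adjusted p = 0.0511). Dlk1, the paternally expressed protein-coding gene at the other end, was at or below 1.86 in every library of this experiment. Its change was 0.32 and 0.75 and was not called by the main test. With a pseudocount of 0.1, with edgeR or without a variance trend it was called at day 4.

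In the Peg3 cluster, Zim1 (chr7:6674444-6696540), a maternally expressed zinc finger gene, was 4.90 and 4.34 with DMSO and 11.03 and 10.3 with dTAG13 at day 2 (1.05 ± 0.27 SE, limma adjusted p = 0.00431), and 2.47 and 4.68 against 11.6 and 11.1 at day 4 (1.48 ± 0.27 SE, limma adjusted p = 0.000134). Peg3, a paternally expressed zinc finger gene, was 239 and 245 against 306 and 329 at day 2 (0.39 ± 0.10 SE, limma adjusted p = 0.00552) and 90.9 and 102 against 123 and 131 at day 4 (0.40 ± 0.10 SE, limma adjusted p = 0.00347). These 2 neighbours, of opposite parental origin, thus rose together, while Usp29 was not called.

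Among the single-gene and small clusters, Plagl1, a zinc finger factor that restrains proliferation, was 7.42 and 7.19 with DMSO and 24.2 and 21.8 with dTAG13 at day 2 (1.53 ± 0.24 SE, limma adjusted p = 3.71e-05), and 5.05 and 5.68 against 13.8 and 8.58 at day 4 (0.91 ± 0.24 SE, limma adjusted p = 0.004). Gnas, the gene of the stimulatory G protein alpha subunit, was 48.4 and 44.6 against 69.9 and 80.9 at day 2 and 38.2 and 31.3 against 47.8 and 63.9 at day 4 (log2 fold changes 0.68 and 0.66). Blcap was 26.7 and 32.3 against 41.0 and 52.7 and then 32.4 and 37.5 against 51.2 and 60.4 (0.65 and 0.66). All 3 genes had their dTAG13 libraries above the DMSO libraries at both days. Zrsr1, an intronless copy of a splicing factor gene whose reads may be shared with its source gene and, without strand, with Commd1 on the other strand, was 31.1 and 24.0 against 38.4 and 40.0 and then 31.4 and 25.6 against 49.9 and 55.0 (0.50 and 0.86). Like Plagl1, Gnas and Blcap, it was called at both days. Zdbf2 was 461 and 393 against 516 and 458 at day 2, not called, and 401 and 416 against 589 and 546 at day 4 (0.47 ± 0.12 SE, limma adjusted p = 0.00248).

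Beside Peg12, the calls made at day 2 and not at day 4 were Igf2r, Impact, Peg13, Mest and Copg2, although the test of the difference between days called none of them. Igf2r and Impact were also called higher at day 4 with median-ratio scaling, edgeR or DESeq2, and Copg2 lower at day 4 without dTAG13 replicate 2 (−0.61, limma adjusted p = 0.0055). Igf2r, the receptor that clears Igf2, was 92.4 and 117 against 163 and 171 at day 2 (0.67 ± 0.12 SE, limma adjusted p = 0.000113) and the difference was 0.21 at day 4, not called. Impact, a regulator of the Gcn2 stress kinase, was 144 and 171 against 237 and 206 at day 2 (0.49 ± 0.11 SE, limma adjusted p = 0.00189) and the difference was 0.26 at day 4, not called. Peg13, a noncoding RNA inside Trappc9, was 5.28 and 5.70 against 8.70 and 9.498 (0.64 ± 0.23 SE, limma adjusted p = 0.0383), while Trappc9 itself was 19.5 and 20.1 against 19.4 and 23.9 and was not called. Mest, a hydrolase-like growth gene, was 38.9 and 32.2 against 51.0 and 44.7 at day 2 (0.42 ± 0.14 SE, limma adjusted p = 0.0215), and its opposite-strand neighbour Copg2 was lower (−0.56 ± 0.15 SE, limma adjusted p = 0.00574), on a chromosome whose tested genes had a median of −0.35. The 3' ends of Mest and Copg2 overlap, and the strand setting of the counting is not given in the sources used here, so reads there cannot be assigned with certainty. Mcts2 was 29.7 and 32.0 against 23.0 and 20.7 at day 2 and 28.9 and 27.1 against 15.5 and 25.7 at day 4, just short of a call at both days (limma adjusted p = 0.0511 and 0.0504). Jade1 was 746 and 717 against 636 and 605 and then 706 and 692 against 777 and 769, and Inpp5f, a phosphoinositide phosphatase gene, was 35.0 and 33.0 against 31.7 and 36.5 and then 26.6 and 26.3 against 22.6 and 29.6. These 3 and Nap1l5, Nnat, H13, Commd1 and Airn were called at neither day by the main test. Jade1 was called at day 4 with median-ratio scaling, edgeR or DESeq2, and Mcts2 at day 4 without dTAG13 replicate 2.

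Leaving out 1 library at a time left 17 or 18 of the day 2 calls. Impact, Peg13, Mirg, Mest, Zrsr1, Peg12, Peg3, Blcap and Copg2 were each lost in at least 1 of these fits, and at day 4 Phlda2, Plagl1, Ppp1r9a, Igf2, Meg3 and Mirg were. The day 2 call of Peg13 was lost in each fit without 1 library and also with DESeq2. That of Zrsr1 was lost in all but the fit without DMSO replicate 1, and also without the filter or without a variance trend.

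By textbook parental origin, which was not measured in these cells, the calls were spread over both kinds. Of the maternally expressed members tested, 9 of 19 were higher and 3 lower at day 2 and 10 higher and 2 lower at day 4. Of the paternally expressed members, 8 of 23 were higher and 1 lower at day 2 and 7 higher and 0 lower at day 4. Of all tested genes 13.7% were higher and 19.9% lower at day 2, and 15.8% higher and 26% lower at day 4. No test of a difference between the kinds was made.

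Genes of imprint maintenance and DNA methylation moved mostly in the other direction with dTAG13. Of a list of 20, 11 were lower and 1 higher at day 2 (median −0.31) and 12 were lower and 1 higher at day 4 (median −0.48), against 19.9% and 26% of all genes lower. At day 4 Zfp57 averaged 274 with dTAG13 and 575 with DMSO (−1.07), Trim28, the corepressor it recruits, 286 and 660 (−1.20), and Uhrf1, which brings Dnmt1 to replicated DNA, 79.1 and 205 (−1.36). Dnmt3l, a cofactor of the de novo methyltransferases, was the 1 that rose, at 34.4 against 9.85 (1.72). Whether these shifts bear on the imprinted genes was not tested.

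Markers of other cell types moved with dTAG13 in the same libraries. The summed level of 6 trophoblast markers was 25.03 and 25.9 with DMSO and 48.8 and 54.4 with dTAG13 at day 2, and between 25.5 and 28.1 against 50.01 and 69.6 at day 4. Of the 5 that passed the filter, 3 were higher at day 2 and 4 at day 4, among them Gata3 at 20.1 against 3.31 at day 4, while Elf5, a defining trophoblast factor, averaged 0.452 or less in each of these groups. The summed level of 10 mesoderm and endoderm markers was 13.8 and 16.8 against 36.7 and 46.2 at day 2, with Hand1 and Gata6 higher and T, Mixl1, Sox17, Foxa2, Kdr and Mesp1 below the filter. At day 4 this sum was 21.3 and 20.01 against 43.4 and 45.4, and 2 of the 4 tested were higher. Of 4 tested peritubular and stromal markers, Des and Col1a1 were higher at day 2 and Des, Pdgfra and Col1a1 at day 4, with medians of 0.93 and 1.33. The sum of the 6 listed was 11.8 and 9.4996 against 15.7 and 21.1 at day 2, and 8.59 and 11.7 against 16.7 and 24.6 at day 4. Of 5 EpiLC markers, Pou3f1 and Wnt8a were higher at both days and 0 lower. The sum of 4 neural markers was 62.8 and 67.0 against 220.4 and 231.6 at day 2, and this sum was mostly Nes, which was called higher (2.10). Of the other neural markers, Sox1 (−0.66) and Pax6 (−1.13) were called lower and Neurog2 was below the filter. At day 4 Nes was again higher and Pax6 lower, and Sox1 was not called. Germ cell markers also changed. Of 7 primordial germ cell markers, Prdm1, Prdm14 and Kit were lower and Tfap2c higher at both days, with medians over the 7 of −0.37 and −0.60. Of the 5 tested genes of the spermatogonia list, which shares Kit, 5 were lower at day 2 and 3 at day 4, and none was higher, with medians of −0.82 and −1.01. The part of such cells in the changes of Ascl2, H19, Phlda2 and the other members was not tested.

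The stage of induction was compared within each cell experiment, and the 2 experiments used different library kits. In the dTAG13 experiment, day 2 DMSO cells were compared with untreated EpiLCs, a step that also differs by the solvent, and the day 2 DMSO libraries serve in this comparison, in the day 4 comparison and in the dTAG13 comparison. From EpiLC to day 2, 17 of 43 tested members were called, 10 higher and 7 lower, against 26.2% of all genes (11.5% higher and 14.7% lower). Peg12 had a mean of 1 or more in only 1 of those groups. From day 2 to day 4, 9 were called, 0 higher and 9 lower, against 5.52% of all genes (2.44% higher and 3.08% lower). Over the 3 vector-carrying lines of the other experiment, with line as a block, 31 of 46 members were called from EpiLC to day 2 (10 higher and 21 lower), against 46.3% of all genes (24.1% higher and 22.1% lower). Asb4, Igf2, Nap1l5 and Slc22a18 had a mean of 1 or more at only 1 of those stages, and the other 42 gave 10 higher and 19 lower. From day 2 to day 4 18 were called (10 higher and 8 lower), against 23% (11.1% higher and 11.9% lower). There Asb4, Calcr, Igf2 and Nap1l5 had a mean of 1 or more at only 1 stage, and the other 42 gave 8 higher and 7 lower. From day 4 to day 6 7 were called (3 higher and 4 lower), against 6.88% (3.49% higher and 3.38% lower). The members' medians over these 5 steps were 0.11, −0.31, −0.19, 0.00 and 0.04, and those of all genes lay between −0.03 and 0.04.

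**Figure D3:**
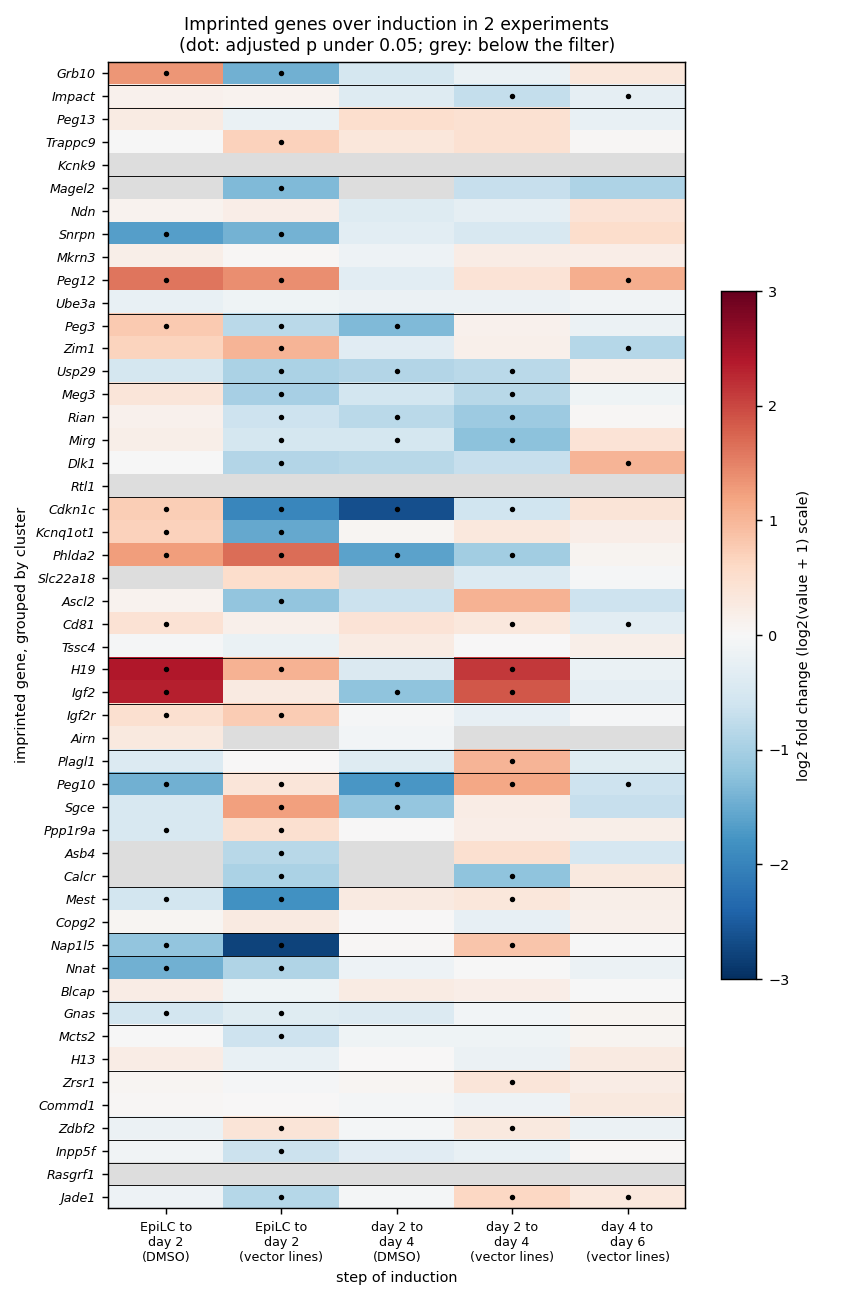
Log2 fold change of every member over each step of induction, in the DMSO series and in the 3 vector-carrying lines, on the log2(value + 1) scale, with dots for an adjusted p under 0.05, grey cells for members below the filter and black lines between clusters. Snrpn, Nap1l5 and Mest are blue and Phlda2, Peg12 and H19 red at the first step in both experiments, while Peg10, Cdkn1c, Peg3 and Kcnq1ot1 have opposite colours there.

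From EpiLC to day 2, 9 of the 42 members tested in both experiments were called the same way in both, against 17.5% of the 14388 genes tested in both. H19 was 5.58 and 3.99 in EpiLCs and 34.5 and 25.1 at day 2 with DMSO (2.41 ± 0.17 SE, limma adjusted p = 4.94e-10), and its change in the vector-carrying lines was 1.05 ± 0.18 SE, limma adjusted p = 2.79e-05. Phlda2 was 3.80 and 5.21 and then 10.9 and 13.03 (1.25 ± 0.27 SE, limma adjusted p = 0.0015), with 1.69 ± 0.13 SE, limma adjusted p = 1.35e-11 in the other lines. Peg12 was 0.887 and 0.443 and then 3.90 and 4.21 (1.61 ± 0.30 SE, limma adjusted p = 0.000324), with 1.40 ± 0.23 SE, limma adjusted p = 9.7e-06. These 3 and Igf2r rose. Snrpn, a splicing protein gene, was 38.3 and 44.0 and then 13.6 and 11.3 (−1.65 ± 0.20 SE, limma adjusted p = 1.7e-06), with −1.42 ± 0.28 SE, limma adjusted p = 0.000134. Nap1l5, an intronless nucleosome assembly protein gene, was 4.56 and 4.76 and then 1.63 and 1.36 (−1.18 ± 0.36 SE, limma adjusted p = 0.0185), with −2.78 ± 0.28 SE, limma adjusted p = 2.79e-09, and its vector-line values at day 2 were below the worth of 3 reads. The Nap1l5 call of the DMSO series was lost without any 1 of its 4 libraries. Nnat, a neuronal proteolipid gene, was 16.4 and 4.65 and then 4.28 and 1.49 (−1.45 ± 0.42 SE, limma adjusted p = 0.0134). The EpiLC pair stood apart for Nnat, and without EpiLC replicate 1 the change was −0.64 (limma adjusted p = 0.355), without day 2 replicate 2 −0.91 (limma adjusted p = 0.208). Mest and Gnas also fell in both.

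At that step 6 of the 42 members were called in opposite directions, against 1.61% of the 14388 genes. Peg10 was 2504 and 2678 in EpiLCs and 816 and 1117 at day 2 with DMSO, a change of −1.44, and it was 206, 321, 697 and 461 in the empty-vector line as EpiLC and at days 2, 4 and 6, a first step of 0.36 over the lines. Cdkn1c was 19.5 and 20.3 and then 29.7 and 38.4 in the DMSO series (0.73), against 141, 55.7, 26.2 and 32.8 in the empty-vector line (−1.95). The starting levels of these genes in EpiLCs differed several-fold between the tables. Kcnq1ot1 was between 545 and 1330 in the dTAG13 table and between 32.7 and 134 in the overexpression table, which was made with another kit, named for mRNA, and reads of Kcnq1ot1 and Kcnq1 cannot be told apart in either. The part of the kit in these levels was not tested. The other 3 were Peg3 (0.77 against −0.81), Ppp1r9a (−0.48 against 0.49) and Grb10 (1.33 against −1.44). Grb10 is a case apart, since it rose in the empty-vector line and fell in both clones, so the average over lines describes neither, and its call was lost without the block (limma adjusted p = 0.328). In the DMSO series the Ppp1r9a call was lost without any 1 of the 4 libraries, the Cdkn1c call in 3 of these 4 fits and the Kcnq1ot1 call without EpiLC replicate 2 (0.53, limma adjusted p = 0.0779), and all 3 were lost without the filter on low values and without a variance trend. The Peg10 and Peg3 calls were kept in each of these fits. The tables were normalized separately and the difference between them was not tested.

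Further first-step changes in the DMSO series were an increase of Igf2 from 1.65 and 1.44 to 9.06 and 15.2 (2.33 ± 0.30 SE, limma adjusted p = 5e-06) and of Grb10 from 50.2 and 45.5 to 108 and 138 (1.33 ± 0.16 SE, limma adjusted p = 1.59e-06). In the vector-carrying lines Mest was 351, 102, 100.1 and 109 in the empty-vector line (−1.82 ± 0.10 SE, limma adjusted p = 1.04e-14 over the lines), and Magel2 was 25.2, 18.1, 5.52 and 2.11 (−1.33 ± 0.32 SE, limma adjusted p = 0.00123). Mest was 286, 79.2, 115 and 128 in clone 1 and 277, 76.9, 111 and 133 in clone 2, and both genes were lower at day 2 than in EpiLCs in all 3 lines. The Magel2 call was lost without line as a block (limma adjusted p = 0.0731). Nap1l5 was 5.26, 0.144, 0.766 and 0.753 with the empty vector, 6.86, 0.154, 1.34 and 0.977 in clone 1 and 10.3, 0.303, 1.31 and 1.75 in clone 2. Phlda2 was 20.4, 54.2, 34.5 and 34.6 with the empty vector, 16.6, 68.4, 29.7 and 29.8 in clone 1 and 20.5, 69.2, 27.4 and 33.1 in clone 2, highest at day 2 in every line. Kcnq1ot1 was 134, 50.7, 37.9 and 64.0 with the empty vector, 99.9, 32.7, 37.6 and 51.8 in clone 1 and 112, 35.6, 79.5 and 52.1 in clone 2 (−1.53). Peg12 was 3.46, 6.90, 13.8 and 25.6 with the empty vector, 1.04, 6.01, 7.85 and 15.8 in clone 1 and 1.65, 6.96, 6.72 and 21.0 in clone 2. Zim1 (1.01) and Sgce (1.23) rose and Ascl2 (−1.18) fell there, with Ascl2 lost when either clone was left out. Without day 2 DMSO replicate 2, 9 of the 17 calls of the DMSO series remained, and Cdkn1c, Cd81, Igf2r, Ppp1r9a, Mest, Nap1l5, Nnat and Gnas were lost.

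Marker lists also moved with stage in the same libraries. From EpiLC to day 2, 5 of 7 primordial germ cell markers were higher and 0 lower in both experiments, and 2 of 3 tested neural markers were higher. Of 5 tested EpiLC markers 5 were lower in the vector-carrying lines and 4 in the DMSO series. Of the 20 genes of imprint maintenance and DNA methylation, 10 were lower and 4 higher in the vector-carrying lines (median −0.23), and 9 were lower and 4 higher in the DMSO series (median −0.26). From day 2 to day 4 in the vector-carrying lines, 5 of 5 tested mesoderm and endoderm markers were higher (median 1.13) and 5 of 5 EpiLC markers lower, and the mesoderm and endoderm sum of all 10 listed went from between 11.4 and 20.3 to between 32.9 and 58.9. In the DMSO series 1 of 4 tested mesoderm and endoderm markers was higher at that step and 3 of 5 EpiLC markers were lower. Their part in the members' changes with stage was not tested.

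The untreated EpiLC libraries also gave the starting level of the highest member of each other cluster. Highest refers to the mean per kb over all libraries of the dTAG13 experiment. Per kb, Rian was above Meg3 and Snrpn above Ube3a in both EpiLC libraries. Impact was 134 and 154, Trappc9 21.9 and 17.9, Ube3a 333 and 399, Peg3 135 and 147, Meg3 185 and 173 and Cd81 39.0 and 53.7. Igf2r was 74.0 and 73.5, Plagl1 11.8 and 8.64, Mest 51.5 and 53.2, Blcap 22.4 and 27.8 and Gnas 72.5 and 64.8. Mcts2 was 33.5 and 29.0, Zrsr1 30.04 and 22.6, Inpp5f 35.0 and 38.9, Zdbf2 545 and 431 and Jade1 806 and 828. Of these, Peg3, Cd81 and Igf2r were called higher and Mest and Gnas lower at day 2 with DMSO.

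From day 2 to day 4 in DMSO, Cdkn1c went from 29.7 and 38.4 to 3.76 and 5.48 (−2.65 ± 0.21 SE, limma adjusted p = 9.73e-08), Peg10 from 816 and 1117 to 239.7 and 335 (−1.75 ± 0.20 SE, limma adjusted p = 9.2e-06) and Phlda2 from 10.9 and 13.03 to 4.08 and 2.59 (−1.60 ± 0.27 SE, limma adjusted p = 0.000665). Peg3 went from 239 and 245 to 90.9 and 102 (−1.32 ± 0.10 SE, limma adjusted p = 7.53e-08). No day 4 library of these 4 genes reached the day 2 values. Sgce (−1.15) and Igf2 (−1.20) also fell, but without day 2 DMSO replicate 2 they were −0.97 (limma adjusted p = 0.0533) and −0.86 (limma adjusted p = 0.272), and the count was 5 in place of 9. Without day 4 DMSO replicate 1 Igf2 was −0.98 (limma adjusted p = 0.105). Usp29 (−0.88), Rian (−0.80) and Mirg (−0.53) were the remaining 3, of which Usp29 was lost without any 1 library and Mirg without 3 of the 4.

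In the vector-carrying lines the same step was called lower for Cdkn1c (−0.61), Phlda2 (−1.04), Rian (−1.08), Mirg (−1.23) and Usp29 (−0.81), the 5 of the 42 members called the same way in both experiments, against 3.19% of the 14388 genes tested in both. The Cdkn1c call was lost without line as a block and without a variance trend. Usp29 was 16.2, 6.75, 7.36 and 6.32 in the empty-vector line, where day 4 was above day 2, 17.3, 8.78, 3.51 and 4.88 in clone 1 and 16.5, 9.23, 2.80 and 3.49 in clone 2, and its call was lost without either clone, without the filter on low values and without a variance trend. Igf2 and Peg10 were called in opposite directions, against 0.348% of those genes. H19 rose further, with 5.71, 7.04, 38.8 and 35.7 in the empty-vector line (2.12 ± 0.18 SE, limma adjusted p = 1.97e-09), Igf2 was 0, 0.575, 12.7 and 9.03 (1.86 ± 0.39 SE, limma adjusted p = 0.000704), and Peg10 rose by 1.15 and Plagl1 by 1.02. The Igf2 step was lost when the empty-vector line was left out, and of days 2 and 4 Igf2 averaged 1 or more only at day 4. Rian was 338, 241, 127 and 96.4 with the empty vector, 345, 219, 102 and 108 in clone 1 and 339, 202, 86.0 and 117 in clone 2, and Mirg was 25.5, 20.1, 9.20 and 6.93 with the empty vector, 29.5, 17.4, 6.52 and 12.5 in clone 1 and 27.2, 18.2, 6.53 and 11.6 in clone 2. Both were lower at day 4 than at day 2 in each line. Plagl1 was 9.31, 9.05, 14.9 and 11.6 with the empty vector, 4.18, 4.01, 10.7 and 9.60 in clone 1 and 5.22, 5.60, 13.8 and 8.88 in clone 2. Calcr, the calcitonin receptor gene, was 3.91, 1.01, 0.460 and 0.753 with the empty vector, 4.03, 2.31, 0 and 0.814 in clone 1 and 5.22, 2.27, 0.187 and 0 in clone 2. Of days 2 and 4 it averaged 1 or more only at day 2, and it was called lower (−1.22), but not when either clone was left out (limma adjusted p = 0.137 and 0.0778). From day 4 to day 6 Peg10 fell by 0.62 and Peg12 rose (1.09 ± 0.23 SE, limma adjusted p = 0.00267), a call lost without clone 2 (0.88, limma adjusted p = 0.118). Dlk1 was 7.06, 2.44, 2.61 and 3.91 with the empty vector, 3.13, 2.31, 0.668 and 3.26 in clone 1 and 5.77, 2.12, 0.373 and 2.33 in clone 2. It was called higher (1.03, limma adjusted p = 0.03), but not without clone 1 (limma adjusted p = 0.273) or clone 2 (limma adjusted p = 0.23), nor without line as a block (limma adjusted p = 0.102).

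Overexpression of Tex10 was compared with the empty vector over 4 stages, with stages standing in for replicates of 1 control line against 2 clones. The p-values therefore measure the spread over stages, and a property of the single control line cannot be told apart from an effect of Tex10. Of 46 tested members 17 were called, 13 lower and 4 higher, against 8.76% of all 15255 genes (4.54% higher and 4.22% lower). The members' median was −0.08 and that of all genes 0.01. Kcnk9, Rtl1, Airn and Rasgrf1 were below the filter, and Igf2, Peg13 and Slc22a18 had a mean of 1 or more in only 1 of the 2 groups. Among the other 43, 4 were higher and 11 lower, with a median of −0.07. The clones did not differ from each other for any member by limma at the adjusted threshold (0 of 46, with 3 at an unadjusted p under 0.05, and 0% of all genes, with 430 at an unadjusted p under 0.05). edgeR and DESeq2 on the recovered reads also called 0 members between the clones.

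**Figure D4:**
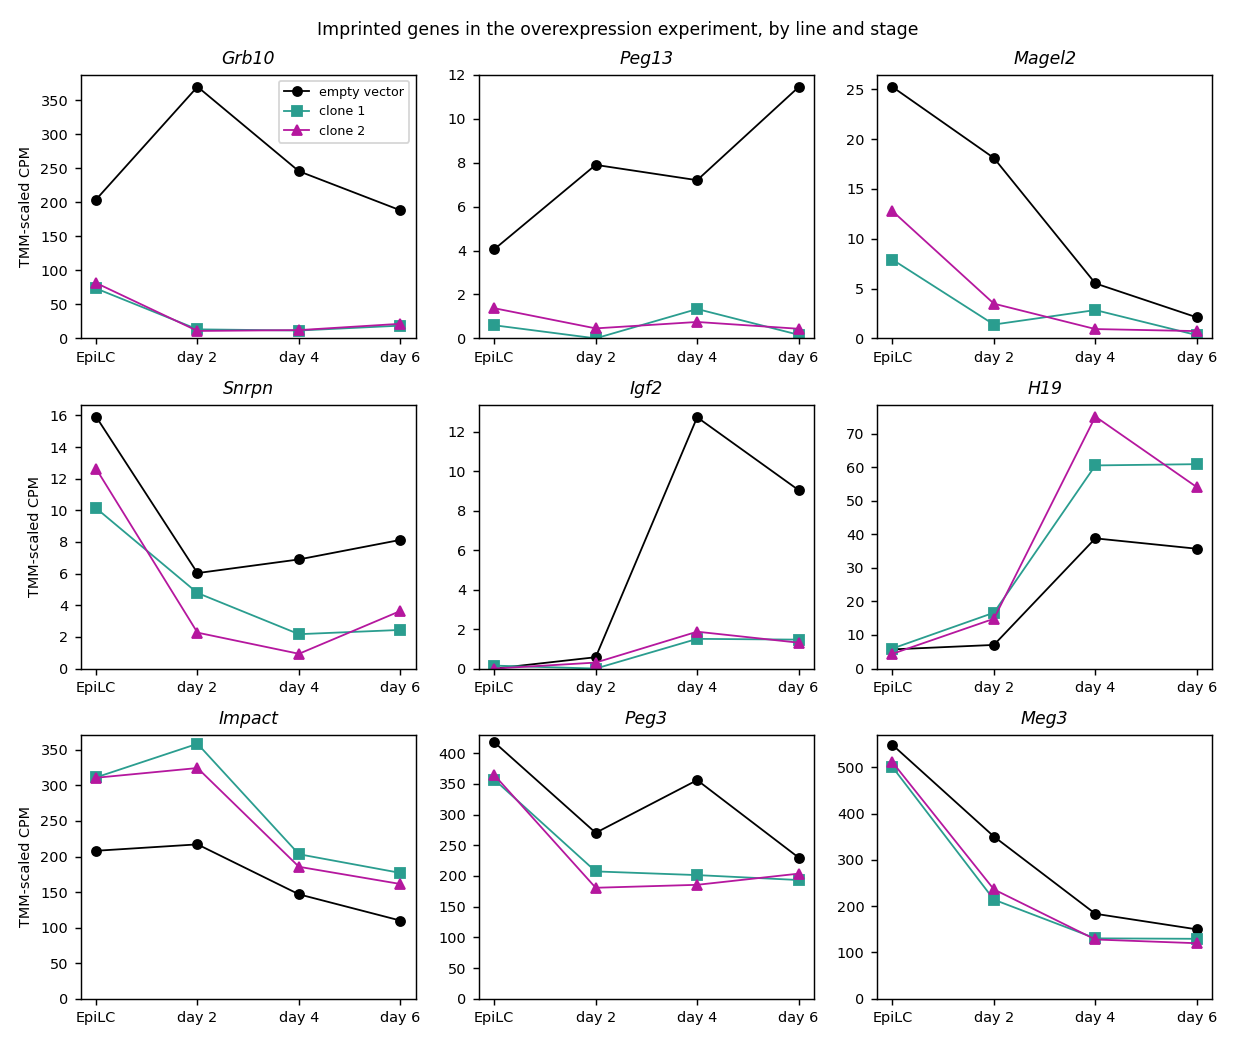
TMM-scaled CPM of 9 members in the empty-vector line and the 2 Tex10 overexpression clones at 4 stages, with 1 library per point and axes that start at 0. Both clones lie below the empty vector at every stage for Grb10, Peg13, Magel2, Snrpn, Peg3 and Meg3 and above it for Impact, and Igf2 separates only at days 4 and 6.

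Grb10 had the largest difference of all members. It was 204, 369.9, 246 and 188 in the empty-vector line as EpiLC and at days 2, 4 and 6, 73.4, 13.2, 11.5 and 18.7 in clone 1 and 81.5, 10.9, 12.1 and 21.4 in clone 2. The empty vector was 2.64 times the mean of the clones in EpiLCs, 30.6 times at day 2, 20.8 times at day 4 and 9.38 times at day 6, with a log2 fold change over the stages of −3.41 ± 0.25 SE, limma adjusted p = 3.67e-11. The difference changed with stage for 11 of the 46 members, Grb10 among them, by an F test added after the data were seen (limma adjusted p = 7.46e-13 for Grb10), against 3.09% of all genes. With 1 empty-vector library per stage, the spread in that test came from the 2 clones alone, and without a variance trend 0 of the 11 were called. The 20 genes flanking Grb10 had a median of 0.00, with 2 higher and 0 lower.

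Peg13 (chr15:72805602-72810324) was 4.06, 7.90, 7.20 and 11.4 with the empty vector, 0.596, 0, 1.34 and 0.163 in clone 1 and 1.37, 0.454, 0.747 and 0.437 in clone 2 (−2.39 ± 0.25 SE, limma adjusted p = 6.04e-08). Clone values of Peg13 lay between 0 and 1.37, around the worth of 3 reads, which was between 0.412 and 0.56 in this table. Trappc9, within which Peg13 lies on the same strand, was 5.41, 13.5, 22.7 and 22.6 with the empty vector, 10.7, 15.4, 20.4 and 21.0 in clone 1 and 12.1, 16.8, 20.9 and 21.6 in clone 2, and was not called.

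In the Snrpn-Magel2 cluster, 5 of 6 members were lower and none higher. Magel2 (chr7:62376979-62381640), a regulator of protein trafficking, was 25.2, 18.1, 5.52 and 2.11 with the empty vector, 7.90, 1.39, 2.84 and 0.326 in clone 1 and 12.8, 3.48, 0.933 and 0.728 in clone 2 (−1.52 ± 0.24 SE, limma adjusted p = 6.94e-05). Snrpn (chr7:59982495-60450177) was 15.9, 6.03, 6.90 and 8.13 with the empty vector, 10.1, 4.78, 2.17 and 2.44 in clone 1 and 12.6, 2.27, 0.933 and 3.64 in clone 2 (−1.004 ± 0.21 SE, limma adjusted p = 0.00203), and shares its locus with Snurf. Both genes were lower in the clones at each stage. Ndn (−0.44), Mkrn3 (−0.44) and Peg12 (−0.58), which are paternally expressed like Magel2 and Snrpn, were also called lower, but not when either clone was left out. Ube3a, assigned to the maternal copy, was 343, 318, 284 and 276 with the empty vector, 317, 330.2, 289 and 219 in clone 1 and 334, 270.2, 236 and 254 in clone 2, and was not called. Which copy of Ube3a these cells use was not measured. Its exons overlap Snhg14 on the other strand, so without strand its reads may be shared. The 20 flanking genes had a median of 0.04, with 2 higher and 0 lower.

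The members of the H19-Igf2 pair went in opposite directions. H19 was 5.71, 7.04, 38.8 and 35.7 with the empty vector, 5.96, 16.6, 60.5 and 60.9 in clone 1 and 4.40, 14.8, 75.0 and 54.0 in clone 2 (0.59 ± 0.14 SE, limma adjusted p = 0.00491), higher in both clones from day 2 on. The H19 call was lost without clone 1 and without the stage of day 2, 4 or 6. Igf2 was 0, 0.575, 12.7 and 9.03 with the empty vector, 0.149, 0, 1.504 and 1.46 in clone 1 and 0, 0.303, 1.87 and 1.31 in clone 2 (−1.20 ± 0.29 SE, limma adjusted p = 0.0069), and its EpiLC and day 2 values were at or near the worth of 3 reads. The Igf2 call was lost without clone 1 (limma adjusted p = 0.0662), without clone 2 (limma adjusted p = 0.0521), without the day 4 stage (−0.81, limma adjusted p = 0.161) and without the day 6 stage (−0.91, limma adjusted p = 0.118).

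Smaller differences were called in other clusters. Impact was 208, 217, 147 and 109.9 with the empty vector, 311, 358, 203 and 177 in clone 1 and 311, 324, 186 and 161 in clone 2 (0.56 ± 0.06 SE, limma adjusted p = 2.17e-08), higher in both clones at every stage. Peg3 was 418, 270.2, 356 and 229.9 with the empty vector, 357, 207, 201 and 193 in clone 1 and 364, 181, 186 and 204 in clone 2 (−0.44 ± 0.07 SE, limma adjusted p = 0.000116). Meg3 was 549, 351, 184 and 150.0 with the empty vector, 501, 214, 131 and 129.6 in clone 1 and 511, 236, 128 and 120.0 in clone 2 (−0.38 ± 0.06 SE, limma adjusted p = 0.000157). Both of these were lower in the clones at every stage. Cdkn1c (−0.47), Plagl1 (−0.56) and Nnat (−0.61) were lower, and Mcts2 (0.31) and Jade1 (0.20) higher. Of these 5, Cdkn1c was lost without the day 2 stage and the others when either clone was left out. Jade1 was 831, 436, 583 and 816 with the empty vector, 845, 497, 777 and 950.1 in clone 1 and 857, 466, 795 and 898 in clone 2.

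Other members that were the highest of their clusters were not called. Peg10 was 266, 331, 712 and 454 in clone 1 and 266, 290.5, 684 and 446 in clone 2, near the empty-vector values given above (0.07). Cd81 was 106, 109, 151 and 129 with the empty vector, 108, 119, 138 and 107 in clone 1 and 102, 125, 149 and 116 in clone 2. Zdbf2 was 277, 496, 503 and 451 with the empty vector, 370.0, 469.7, 602 and 531 in clone 1 and 407, 396, 567 and 504 in clone 2. The changes of Igf2r (0.05), Mest (−0.07), Blcap (−0.16), Gnas (−0.08), Zrsr1 (0.13), Inpp5f (−0.12) and Nap1l5 (0.37) did not pass either. Igf2r was 61.0, 109, 102 and 77.8 with the empty vector, 68.4, 107, 91.4 and 95.4 in clone 1 and 63.0, 112, 84.0 and 96.4 in clone 2. Blcap was 46.4, 43.8, 51.3 and 45.9 with the empty vector, 43.2, 32.4, 40.9 and 41.2 in clone 1 and 41.2, 43.7, 44.6 and 49.5 in clone 2. Gnas was 80.5, 73.1, 75.6 and 63.2 with the empty vector, 101, 60.7, 55.8 and 64.1 in clone 1 and 77.9, 66.2, 59.9 and 73.1 in clone 2. For Igf2r and Gnas the clones lay above the empty vector at some stages and below it at others. For Blcap both clones lay below it as EpiLC and at days 2 and 4, by little for clone 2 at day 2. At day 6 clone 2 alone lay above it. Zrsr1 was 40.3, 34.9, 49.8 and 59.3 with the empty vector, 41.2, 42.8, 54.3 and 68.0 in clone 1 and 42.0, 43.9, 53.8 and 57.1 in clone 2. Inpp5f was 55.9, 36.9, 34.6 and 24.996 with the empty vector, 54.9, 33.1, 24.6 and 34.5 in clone 1 and 47.7, 29.8, 26.5 and 28.5 in clone 2. Clone 1 lay above the empty vector at each stage for Zrsr1, and for Inpp5f both clones lay below it as EpiLC and at days 2 and 4 and above it at day 6. Mcts2, called with the small difference above, was 51.1, 31.6, 23.8 and 34.0 with the empty vector, 58.6, 40.4, 39.3 and 38.9 in clone 1 and 60.7, 37.2, 38.6 and 32.3 in clone 2.

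Of the members assigned to the paternal copy, 10 of 23 were lower and 3 higher, and of those assigned to the maternal copy 3 of 22 were lower and 1 higher. Of all tested genes 4.22% were lower and 4.54% higher, and a difference between the kinds was not tested. Of the 20 genes of imprint maintenance and DNA methylation, 1 was lower (Dnmt3a, −0.29) and 0 higher. Without a variance trend 4 calls remained, Grb10, Impact, Peg13 and Magel2. With 1 clone left out 8 or 9 remained, and without the day 2 or the day 4 stage 11 or 10 were called. Of the 3 trophoblast markers that passed the filter, 0 were called. The summed level of all 6 listed was 45.5 with the empty vector against 41.3 and 46.01 in the clones as EpiLCs, 17.5 against 11.2 and 14.2 at day 2, 38.8 against 26.1 and 23.3 at day 4, and 29.7 against 29.5 and 26.4 at day 6. The empty-vector library was the higher at days 2, 4 and 6, by little at day 6, and lay between the clones as EpiLC. Of the 3 tested neural markers 2 were lower and 0 higher, and the sum of the 4 listed was 169.7 against 118.9 and 130.3 at day 2 and above both clones at the other stages too. Of 5 tested mesoderm and endoderm markers 1 was lower (Hand1) and 0 higher, and the sum of the 10 listed was 49.0 against 44.9 and 52.5 as EpiLCs, 20.3 against 11.4 and 16.2 at day 2, 58.9 against 38.8 and 32.9 at day 4, and 37.6 against 33.2 and 31.9 at day 6. Of 3 tested peritubular and stromal markers 1 was lower (Pdgfra) and 0 higher, and the sum of the 6 listed was below the empty vector in both clones at every stage. Of 7 primordial germ cell markers 1 was higher and 0 lower, and their sum was 316 with the empty vector against 371 and 379.6 in the clones at day 2 and 339 against 268 and 276 at day 4. The part of these markers in the members' differences was not tested.

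In testis the question was which imprinted genes differed when Tex10 was deleted conditionally. Of 40 members 16 were called, 14 higher and 2 lower in cKO, against 29.1% of all 20658 genes (16.1% higher and 13.1% lower). The members' median log2 fold change was 0.37 and that of all genes 0.01. Dlk1 and H19 had a mean of 1 or more in only 1 group, and the other 38 gave 12 higher and 2 lower, with a median of 0.33.

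**Figure D5:**
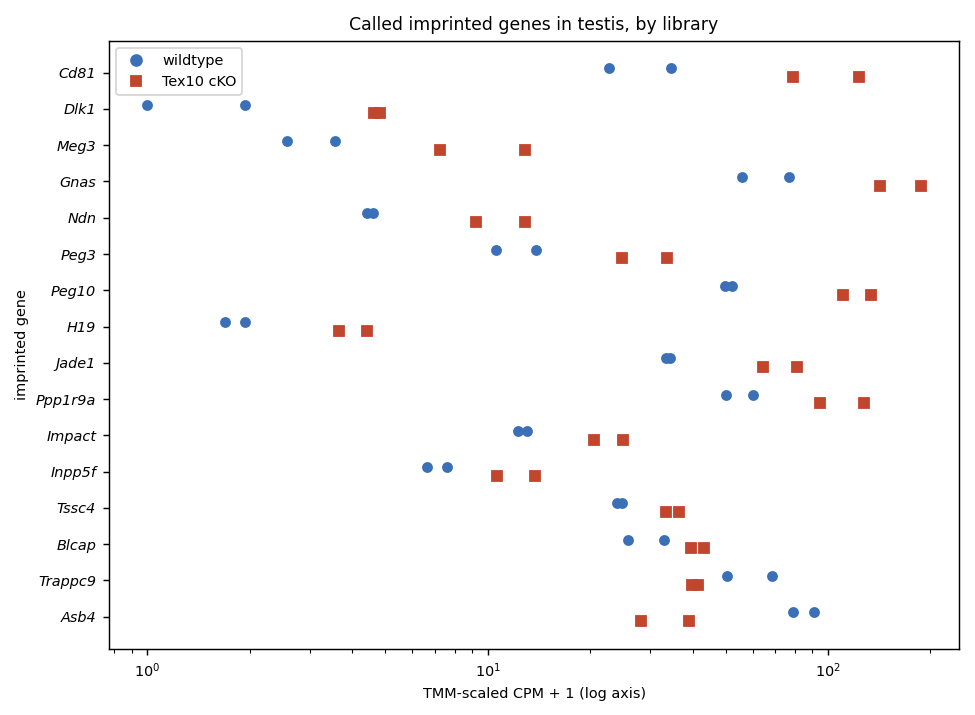
TMM-scaled CPM plus 1, on a log axis, of the 16 called members in 2 wildtype and 2 cKO testis libraries, with 1 point per library. Asb4 and Trappc9 lie lower in both cKO libraries, and the other 14 lie higher, with Cd81 and Dlk1 furthest from wildtype.

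Cd81 was 33.6 and 21.7 in wildtype and 123 and 77.8 in cKO (1.82 ± 0.22 SE, limma adjusted p = 0.000107). Dlk1, a Notch-like membrane protein found on Leydig and stromal cells, was 0 and 0.942 in wildtype and 3.62 and 3.81 in cKO (1.76 ± 0.39 SE, limma adjusted p = 0.00467), and its neighbour Meg3 was 2.57 and 1.57 in wildtype and 11.8 and 6.23 in cKO (1.67 ± 0.35 SE, limma adjusted p = 0.00336). No cKO library of these 3 genes overlapped wildtype. Gnas was 76.0 and 54.8 in wildtype and 186 and 142 in cKO (1.32 ± 0.17 SE, limma adjusted p = 0.000146), and Peg10 was 51.2 and 48.8 in wildtype and 133 and 109 in cKO (1.25 ± 0.14 SE, limma adjusted p = 6.56e-05). Peg3 was 12.8 and 9.57 in wildtype and 32.6 and 23.8 in cKO (1.25 ± 0.22 SE, limma adjusted p = 0.00114), and Ndn, a growth suppressor of the Snrpn-Magel2 cluster, was 3.42 and 3.61 in wildtype and 11.8 and 8.26 in cKO (1.27 ± 0.29 SE, limma adjusted p = 0.00577). In these 4 genes, and in Cd81 and Meg3, cKO replicate 1 lay above cKO replicate 2, and both lay above wildtype.

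Asb4, a substrate adaptor of ubiquitin ligases, was 90.1 and 78.0 in wildtype and 27.2 and 38.0 in cKO (−1.36 ± 0.17 SE, limma adjusted p = 0.000124), the only member past a log2 fold change of −1. Its cluster neighbours Peg10 and Ppp1r9a (1.002) were higher. Trappc9 was 49.5 and 67.6 in wildtype and 40.5 and 38.8 in cKO (−0.53 ± 0.16 SE, limma adjusted p = 0.0239). H19 was 0.685 and 0.942 in wildtype and 2.65 and 3.43 in cKO (1.15 ± 0.35 SE, limma adjusted p = 0.0246), low throughout. The other called members were Jade1 (33.2 and 32.5 against 80.0 and 63.3, 1.09), Impact (11.3 and 12.1 against 24.0 and 19.6, 0.84), Inpp5f (5.65 and 6.59 against 12.8 and 9.66, 0.77), Tssc4 (0.52) and Blcap (32.0 and 24.8 against 42.2 and 38.6, 0.50).

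Members that were not called included Grb10, at 27.6 and 30.8 in wildtype and 28.6 and 29.0 in cKO, and Ube3a, at 115 and 115 in wildtype and 109 and 94.7 in cKO. The groups overlapped for Grb10, and for Ube3a the difference of −0.18 was within the error of the test (limma adjusted p = 0.293). Mcts2 was 49.5 and 41.1 in wildtype and 32.5 and 38.1 in cKO, and Zdbf2 was 98.3 and 103 in wildtype and 95.8 and 97.5 in cKO. Copg2 was 38.5 and 34.8 in wildtype and 42.3 and 40.8 in cKO, and Zrsr1 was 21.9 and 25.4 in wildtype and 30.8 and 31.1 in cKO. The test called none of Mcts2, Zdbf2, Copg2 and Zrsr1. Igf2r was 14.9 and 16.95 in wildtype and 21.2 and 21.1 in cKO, Plagl1 was 5.48 and 7.69 in wildtype and 6.41 and 5.72 in cKO, Mirg was 3.77 and 5.18 in wildtype and 5.71 and 5.34 in cKO and Rasgrf1 was 3.94 and 2.20 in wildtype and 1.39 and 1.14 in cKO. Of members assigned to the maternal copy 6 of 18 were higher and 2 lower, and of those assigned to the paternal copy 7 of 21 were higher and 0 lower. Of all tested genes 16.1% were higher and 13.1% lower, and a difference between the kinds was not tested.

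Markers of the somatic cells of the testis moved with these genes. All 8 Sertoli markers were higher, and their summed level was 226 and 254 in wildtype and 581 and 679 in cKO. Of 8 Leydig markers 7 were higher, with sums of 294 and 405 against 699 and 1268, and of 6 peritubular and stromal markers 5 were higher, with sums of 31.7 and 37.0 against 91.1 and 117. The macrophage sum was 35.0 and 41.1 against 71.3 and 91.5, with 3 of 4 tested markers higher, and 6 of 7 spermatid markers were lower, with sums of 17255 and 19664 against 12713 and 13232. Of 7 spermatogonia markers 4 were higher and 0 lower, with sums of 93.0 and 79.7 against 136 and 150.2, and of 6 spermatocyte markers 2 were higher and 0 lower, with sums of 457 and 439 against 419 and 474. No marker of these lists was at 0 in any testis library. Their part in the changes of the imprinted genes was not tested. Of 19 genes of imprint maintenance and DNA methylation that were listed, 2 were higher and 2 lower, among them Dnmt3a at 38.9 in cKO against 15.7 in wildtype (1.25) and Dnmt3l at 5.21 against 15.4 (−1.40).

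Without cKO replicate 1, the library with the higher Leydig sum, 9 of the 16 calls remained. Impact, Ndn (1.04, limma adjusted p = 0.0873), Meg3 (1.25, limma adjusted p = 0.0566), Tssc4, H19, Blcap and Inpp5f were lost, while Cd81, Dlk1, Gnas, Peg10, Peg3, Ppp1r9a, Jade1, Asb4 and Trappc9 were kept. Without cKO replicate 2 the calls of Trappc9, Tssc4, H19 and Blcap were lost, for a count of 12.

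Set side by side, the experiments gave some members 1 direction and others several. H19 was called higher with dTAG13 at both days (2.12 and 2.59), in the clones (0.59) and in cKO testis (1.15). The dTAG13 calls of H19 were kept without any 1 library, while the clone call was lost without clone 1 and without the day 2, 4 or 6 stage, and the testis call was lost without cKO replicate 1, cKO replicate 2 or wildtype replicate 1, and H19 averaged 1 or more in cKO alone. Grb10 was called lower both with dTAG13 (−1.21 and −1.02) and in the clones (−3.41), and was −0.02 in testis, not called. Peg3 (0.39, 0.40 and −0.44), Meg3 (0.81, 0.67 and −0.38) and Plagl1 (1.53, 0.91 and −0.56) were called higher with dTAG13 at days 2 and 4 and lower in the clones. In cKO testis Peg3 and Meg3 were called higher, Meg3 not without cKO replicate 1, and Plagl1 (−0.09) was not called. Of these calls, that of Peg3 at day 2 was lost without dTAG13 replicate 2, that of Meg3 at day 4 without DMSO replicate 1, that of Plagl1 at day 4 without dTAG13 replicate 1, and that of Plagl1 in the clones without either clone. Without a variance trend Peg3 at day 2, Meg3 at day 4 and all 3 genes in the clones were not called. Cd81, Peg10 and Gnas were called higher with dTAG13 and in cKO testis, and were −0.03, 0.07 and −0.08 in the clones, not called. Impact was called higher with dTAG13 at day 2 (0.49), in the clones (0.56) and in cKO testis (0.84), but not at day 4 (0.26). Its day 2 call was lost without dTAG13 replicate 1 or DMSO replicate 1, and its testis call without cKO replicate 1. These values come from tables normalized apart, and no difference between experiments was tested.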

How the data were processed

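RNA of 26 mouse libraries was extracted with Trizol and, per the labels' protocols, prepared with the NuGEN Ovation Mouse kit (dTAG13 and testis batches) or the Tecan Universal Plus mRNA kit (overexpression batch). The deposited signal, in 3 tables, is CPM relative to library sizes scaled by TMM, and the authors normalized each table separately. The submitters' processing notes name mm10, Bowtie2 2.3.4.3, SAMtools 1.9, HTSeq 0.11.2 and edgeR 3.26.8 with no role or order, and the strand setting of the counting is not given in the sources used here. Exons of Ube3a, Usp29, Cd81, Tssc4, Igf2 and Gnas also overlap genes on the other strand, so part of their reads may be shared. The log2 fold changes and p-values that the authors deposited beside these columns were not used.

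Each library's values were whole multiples of 1 step (100.0% at a tolerance of 0.01), which gave reads and depth. The main test was limma 3.58.1 (R 4.3.3) with a variance trend on log2(value + 1), over genes with a mean of at least 1 in the table, with p-values adjusted by Benjamini-Hochberg over all tested genes of a comparison. The fits were also run on simulated counts with planted changes, the same spread setting for every gene and no effect of stage. Those runs do not measure the error of the clone comparison, where stages stand in for replicates. Alternatives were a pseudocount of 0.1, no filter, a mean of at least 5, median-ratio scaling, no variance trend, edgeR 4.0.16 and DESeq2 1.42.0 on the recovered reads, the replicate block, and leaving out each library, clone or stage. On those reads edgeR called 5033 genes with dTAG13 at day 2, 6407 at day 4, 1285 in the clones and 5904 in testis.

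The members and all gene lists were chosen with earlier results of these data known. A member's value in every library is given where it was called and changed by 1 or more on the log2 scale in either direction. This was done for at most 8 members per comparison, by size. For the highest member of a cluster, values are given for some or all libraries. Other members are given by counts or fold changes, and further values were added where a cluster is described.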

Additional observations from a re-analysis of the deposited data

Results flagged for a closer look

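Cdkn1c was the member whose response to dTAG13 differed between the days, with a difference of 1.72 on the log2 scale, day 4 minus day 2. The call was lost without day 2 dTAG13 replicate 1 (limma adjusted p = 0.0564), without day 4 dTAG13 replicate 2 (limma adjusted p = 0.0576), without the filter on low values and without a variance trend. Without day 4 DMSO replicate 1 Meg3 and Kcnq1ot1 were called as well, without day 4 DMSO replicate 2 Ppp1r9a, and with DESeq2 Jade1.

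The difference between the clones and the empty vector changed with stage, by an F test over the 4 stages, for 11 members. The limma adjusted p was 7.46e-13 for Grb10, 0.00151 for Peg3, 0.00252 for Mest, 0.00323 for Zdbf2, 0.0132 for Ascl2 and 0.0164 for Rian. It was 0.0222 for Cdkn1c, 0.028 for Meg3, 0.0286 for Ppp1r9a, 0.0324 for Igf2 and 0.0441 for Peg10. With 1 empty-vector library per stage, a single library decides the control value of each stage, and without a variance trend 0 of the 11 were called.

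Some members took opposite courses in the 2 cell experiments, and the difference was not tested. Of the 42 members tested in both, 6 did so from EpiLC to day 2, with Grb10 in addition to the 5 listed here, and 2 from day 2 to day 4, against 1.61% and 0.348% of the 14388 genes tested in both. From EpiLC to day 2 the vector-carrying lines gave −0.81 for Peg3, −1.95 for Cdkn1c, −1.53 for Kcnq1ot1, 0.36 for Peg10 and 0.49 for Ppp1r9a, and the DMSO series gave 0.77, 0.73, 0.70, −1.44 and −0.48 in the same order. Of the calls in the DMSO series, that of Ppp1r9a was lost without any 1 of its 4 libraries, that of Cdkn1c in 3 of these 4 fits, and that of Kcnq1ot1 without EpiLC replicate 2, and all 3 were lost without the filter on low values and without a variance trend. From day 2 to day 4 the vector-carrying lines gave 1.86 for Igf2 and 1.15 for Peg10, and the DMSO series −1.20 and −1.75. The Igf2 calls were lost without the empty-vector line in the one and without day 2 DMSO replicate 2 or day 4 DMSO replicate 1 in the other. Cell line, solvent and library kit differ between the experiments and cannot be told apart.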

How the results depend on the processing

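In the comparisons with 1 direction, no member called in both fits changed sign under any alternative run. The test of clone effects by stage has no single direction, and with a pseudocount of 0.1 its day 6 minus EpiLC term changed sign for 1 of the 9 members called in both fits. The dTAG13 counts were between 18 and 23 of 43 at day 2 (17 to 18 without 1 library) and between 17 and 25 at day 4 (18 to 19), and the testis count of 16 was between 11 and 17 (9 to 15 without 1 library), where the 11 of DESeq2 leaves out Dlk1 and H19, to which it gave no adjusted p. The day 4 minus day 2 count of 1 was 0 without the filter on low values, 0 without a variance trend and 2 with DESeq2, and 0 to 3 without 1 library. The EpiLC to day 2 count of 17 in the DMSO series was 11 without the filter and 10 without the trend. It was lower than 17 in each fit without 1 library. From day 2 to day 4 in DMSO the count of 9 was 6 without the filter and 6 without the trend. It was 10 with a mean of at least 5, 11 with edgeR, 11 with DESeq2 and 12 with median-ratio scaling. No fit without 1 library raised it. The count of 17 in the clones was 8 without the filter, 4 without the trend and 8 to 14 without 1 clone or stage. In the vector-carrying lines the day 4 count of 18 was 11 to 21 without 1 line, and the day 6 count of 7 was 2 without the filter, 3 without the trend, 2 without the replicate block and 2 to 11 without 1 line. The count of 11 for clone effects that changed with stage was 7 without the filter, 0 without the trend and 7 with DESeq2. Without the filter far more genes entered the adjustment, and for the others the cause was not tested.

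Replicate numbers appear only in the titles, and the deviations of same-numbered samples from their group means had correlations of −0.0246 and −0.0686 for dTAG13 at days 2 and 4, 0.118 and 0.0927 for the DMSO steps and 0.116 for testis. With the replicate block the counts were 22, 19, 17, 9 and 17, and 1 for day 4 minus day 2. No replicate block could be fitted for the clones against 1 empty-vector line. Genes near the worth of 3 reads, such as Peg13 and Igf2 in the overexpression table, are limited by depth, and 2 libraries a group limit every leave-one-out value.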
